A study of Mus musculus with 40 samples.

Results

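The comparison described here set EpiLCs labelled as knockouts of the lamins and the lamin B receptor (LBR) against wild-type (WT) EpiLCs. EpiLCs are epiblast-like cells, the primed state that mouse embryonic stem (mES) cells reach after 48 h in N2B27 to which FGF (20 ng/mL) and Activin A (12 ng/mL) were added. The samples were chosen by their labels: 4 libraries of the quadruple knockout (QKO) and 8 WT libraries, 12 of the 40 in the series. Because WT replicates 1 to 4 were sequenced to about the depth of the QKO libraries and WT replicates 5 to 8 more deeply, the contrast with WT was also made against WT replicates 1 to 4 alone. The QKO cells carried deletions of Lmna, Lmnb1 and Lmnb2, as in the triple knockout (TKO) line they were made from, plus deletions made with Cas9 in both alleles of Lbr, of which 1 shifts the reading frame and the other keeps it. They were a single clone, and the WT line was a littermate line of the TKO line. The series also holds TKO and LBR-only knockout (LBRKO) EpiLCs and the same 4 genotypes as mES cells in 2i and LIF. Libraries were stranded total RNA after ribosomal depletion, each from its own well, so the p-values below measure the spread between wells. A clone and its genotype cannot be told apart here, and karyotypes of the lines were reported as abnormal for chromosomes 6, 8 and Y.

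Gene totals, in units of 1000000 counts, were 25.3 to 33.0 in QKO, 25.4 to 33.5 in WT replicates 1 to 4 and up to 48.9 in WT replicates 5 to 8. They were 22.6 to 33.2 in TKO and 40.8 to 48.1 in LBRKO EpiLCs. Values of TKO and LBRKO EpiLCs are given against all WT libraries, whatever their depth. Levels are given as counts per 1000000 (CPM) after TMM scaling, and a gene is called changed where edgeR's quasi-likelihood test gave a Benjamini-Hochberg adjusted p below 0.05 and the difference was over 2-fold. Log2 fold changes are QKO minus WT unless another pair is named, and errors on them are standard errors (SE). In bulk RNA, fewer cells that express a gene and less of its RNA per cell cannot be told apart.

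The nuclear lamina is the meshwork of A-type and B-type lamins under the inner nuclear membrane, and LBR is a membrane protein of that surface which binds B-type lamins and heterochromatin. Together they hold silent, late-replicating chromatin rich in H3K9 methylation at the nuclear edge. EpiLCs model the epiblast as it leaves the naive state: they gain de novo DNA methyltransferases and silence germline genes and retrotransposons by DNA methylation. p53 is a transcription factor that accumulates under stress, and its targets include the cell cycle inhibitor Cdkn1a (p21) and its own ubiquitin ligase Mdm2.

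The targeted genes were read first. Lmnb1, which encodes lamin B1, stood at 2.09, 1.85, 1.64 and 1.74 CPM in the 4 QKO libraries and at 499 at the lowest, 509 at the median and 547 at the highest in WT. Lmnb2 (lamin B2) stood at 1.58, 1.79, 1.02 and 1.51 CPM in QKO and at 89.8 to 102 in WT. Both were lost from every QKO library, with a log2 fold change of -8.14 ± 0.10 for Lmnb1 (adjusted p = 1.44e-42) and -6.02 ± 0.14 for Lmnb2 (adjusted p = 1.52e-31). Lmna (lamin A/C) was low in WT EpiLCs, 9.28 at the lowest, 11.3 at the median and 13.0 at the highest, and the QKO values of 6.95, 8.41, 9.43 and 8.74 CPM overlapped them (log2 fold change -0.43 ± 0.10 (SE), adjusted p = 5.05e-04). Lbr read 252, 282, 291 and 282 CPM in QKO against 364 to 513 in WT, below every WT library but under 2-fold (log2 fold change -0.63 ± 0.14 (SE), adjusted p = 1.31e-04). Counts summed over a whole gene hold whatever transcript an edited allele still makes, so the Lmna and Lbr values do not test those 2 labels, and what protein the in-frame Lbr allele gives was not measured here. The Lbr guide was designed over a SacI site in exon 2, and the 1 site of that kind in the coding part of the exon that has an adjacent PAM is shown here as the site that this design points to. The sequence is the plus strand of GRCm39, opposite to the gene, chr1:181666037-181666059, with the SacI site in capitals and the last 3 bases the PAM.
Lbr exon 2 site: tcataataaaggGAGCTCccagg

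QKO EpiLCs had EpiLC markers, at a lower summed level than WT. The 15 formative and primed epiblast genes summed to 4361 to 4603 CPM in QKO EpiLCs and 5312 to 6266 in WT EpiLCs, with no overlap, and to 1054 to 1076 in QKO mES cells. The sums were 4372 to 5061 in LBRKO EpiLCs, which overlap QKO, and 5217 to 5549 in TKO EpiLCs. Fgf5, a growth factor of the primed epiblast, read 177, 181, 185 and 177 CPM in QKO and 132 to 157 in WT EpiLCs, a small excess over all WT libraries (log2 fold change 0.31 ± 0.08 (SE), adjusted p = 8.60e-04). In mES cells it was nearly absent, with 1 read in all over the 4 QKO libraries and 28 over the 8 WT libraries. The transcription factors Otx2 (0.49 ± 0.27) and Pou3f1 (0.08 ± 0.10) were likewise within 2-fold of WT EpiLCs. Dnmt3b, the de novo methyltransferase that rises on entry into this state, read 1735, 1712, 1682 and 1642 CPM against 2722 to 3306, below all WT libraries at a log2 fold change of -0.84 ± 0.11. A sum is weighted to abundant genes, and this fall of Dnmt3b was large beside the gap between the QKO and WT sums. Of 15 formative and primed genes tested, 0 were called higher and 1 lower by edgeR (3 and 5 at an unadjusted p below 0.05). The gene called was Cdh2 (N-cadherin, -1.10 ± 0.25), which fell short of 2-fold against WT replicates 1 to 4 (-0.83). Markers of other cell types were looked at as well. Of 6 fibroblast genes 3 were lower and none higher by edgeR (5 and 0 at an unadjusted p below 0.05); their summed level was 9.69 to 10.3 CPM in QKO and 18.8 to 24.2 in WT, with Col1a1 at 1.55, 1.63, 1.67 and 1.93 and 2.25 to 3.59. Of 14 neural genes 2 were higher (Sox21 and Six3) and 3 lower (Neurog2, Tubb3 and Pax6), with sums of 174 to 190.1 CPM in QKO and 319 to 353 in WT.

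Across the 23399 genes tested, 3048 were higher in QKO EpiLCs (13.0%) and 1909 lower (8.16%), and the median log2 fold change was -0.01. Counts of list members above and below are to be read beside these shares. Against WT replicates 1 to 4, 2983 were higher (12.7%) and 1857 lower (7.94%), of which 2563 and 1667 carried the same call against all WT and 0 the opposite one. Libraries of QKO and WT did not overlap for 8777 genes (37.5%). Of the changed genes 61.5% were higher. Scaled by library size alone, without TMM, the share was 72.4% and the median of all genes moved to 0.15, so changes are given relative to the TMM centre.

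The rise was uneven over annotated gene types. Long noncoding RNA genes were higher in 1040 of 3253 cases (32.0%) and lower in 115 (3.54%). Protein-coding genes ran the other way, with 1109 of 15477 higher (7.17%) and 1694 lower (10.9%). Among 2898 pseudogenes 430 were higher (14.8%). Genes that lie inside the span of another gene were higher in 907 of 3928 cases (23.1%), against 2141 of 19471 (11.0%) of the others. Some gene families that are silent in most cells stood out by count: 21 of 46 olfactory receptor genes, 12 of 26 vomeronasal receptor genes and 8 of 21 Mage genes tested were higher. The filter on low counts kept a gene with enough reads in as many libraries as the smallest group holds, which QKO alone could supply. Members silent in WT could thus enter the test through QKO. This can raise the shares higher in such families and in noncoding genes, by an amount not tested. Of 26 clustered protocadherin genes 0 were higher and 1 was lower, by the same test. In a second measurement, unique reads on transposable element copies inside introns were 89419 to 96593 per 1000000 gene counts in QKO and 37395 to 64559 in WT. The part of intronic reads in the calls of noncoding and nested genes was not tested. No source used here states whether reads were counted by strand; without it, nested and antisense genes may hold reads of their hosts.

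**Figure D1:**
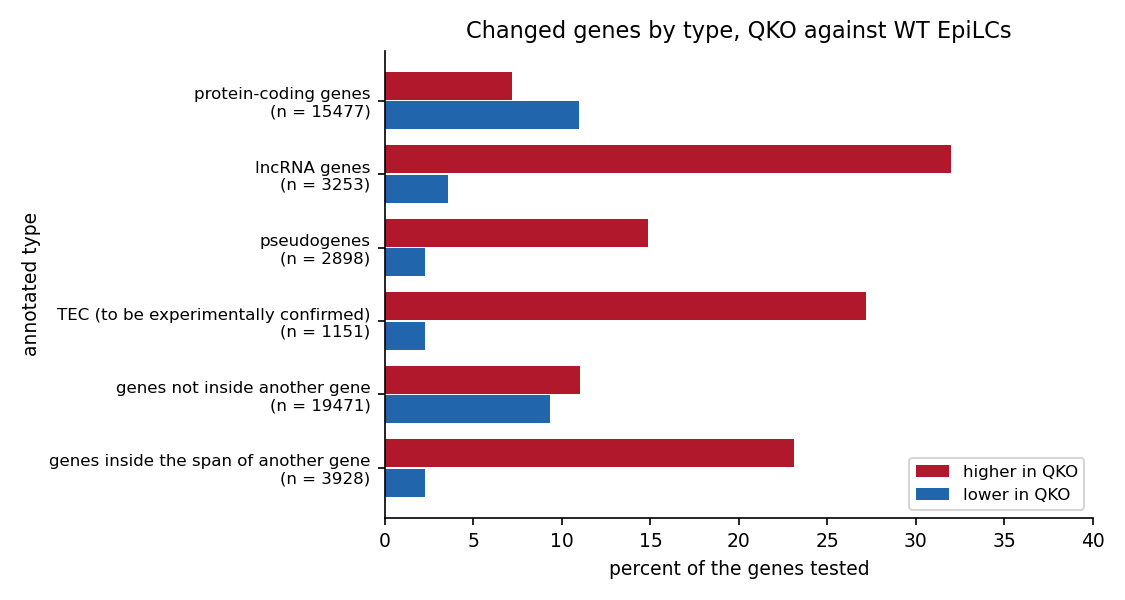
Percent of the genes tested (x axis) that were higher (red) or lower (blue) in QKO against WT EpiLCs, by annotated type (y axis). Long noncoding RNA genes, 32.0% higher and 3.54% lower, and protein-coding genes, 7.17% higher and 10.9% lower, lie on opposite sides.

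The genes with the greatest rises were of several kinds. Apoa2, an apolipoprotein of high-density lipoprotein, read 8.32, 8.79, 8.74 and 9.36 CPM in QKO and at most 0.350 in WT (log2 fold change 6.23 ± 0.33 (SE), adjusted p = 1.33e-19), and it was also 5.59 above WT in TKO. Nod1, a cytosolic sensor of bacterial peptidoglycan, behaved alike at 4.67 in QKO and 4.27 in TKO. The Schlafen transcripts Slfnlnc and Slfn8 were higher in QKO (4.79 ± 0.19 and 3.60 ± 0.15), while in TKO Slfn8 was higher by less (1.65 ± 0.17) and Slfnlnc was at -0.51 ± 0.32. In all, 6 of the 9 Slfn genes tested and 3 of 3 Phf11 genes were higher, beside 13.0% of all genes tested. Both families have members among the greatest rises, so these counts are no independent evidence. Members silent in WT could also enter the test through QKO alone. Both are multigene families, and reads that fit several members were not counted. Phf11d stood at 41.4, 38.0, 44.0 and 42.9 CPM against 1.97 to 3.66 in WT (log2 fold change 3.89 ± 0.10 (SE), adjusted p = 3.71e-30). Magea4, a germline antigen of the Mage family, stood at 7.27, 7.003, 6.38 and 8.18 CPM against 0.217 to 0.495 in WT (log2 fold change 4.35 ± 0.12 (SE), adjusted p = 1.77e-28). The rest of the 10 were the pseudogene Btnl7-ps (3.82), the olfactory receptor Or14a260 (3.69), and the Y-linked Zfy1 and Kdm5d (4.44 and 4.07). Loss of the Y chromosome was reported for part of the WT and TKO populations, so a level on Y and the share of cells with a Y cannot be told apart.

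The greatest falls were Lmnb1, Lmnb2 and the pseudogene Tdg-ps2, which read 0.684, 0.192, 0.262 and 0.280 CPM in QKO, a log2 fold change of -7.16 ± 0.16, and was -6.89 in TKO. Next came Gjb2, a gap junction connexin, at 0.252, 0.320, 0.131 and 0.196 CPM against 5.17 to 7.80 in WT (log2 fold change -4.77 ± 0.27 (SE), adjusted p = 1.30e-18). Kif1a, a kinesin motor of axonal transport, read 8.03, 9.05, 8.02 and 8.38 CPM in QKO and 106 to 137 in WT (log2 fold change -3.83 ± 0.12 (SE), adjusted p = 1.35e-27), while TKO stood at -1.14 and LBRKO at -1.19 log2 units from WT. Hhip, which binds and restrains Hedgehog ligands, was lower by a log2 fold change of -3.64 ± 0.31. Vat1l (-3.72), Gpr137b-ps (-3.69), Igsf23 (-3.54) and the fucosyltransferase Fut1 (-3.44) completed the 10, of which Igsf23 was -3.77 in TKO.

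Several p53 targets rose in QKO EpiLCs. Mdm2 read 316, 308, 323 and 316 CPM in the 4 QKO libraries and 110.5 at the lowest, 122 at the median and 149.5 at the highest in WT. Every QKO library was over 2 times the highest WT value (log2 fold change 1.32 ± 0.08 (SE), adjusted p = 2.77e-18). Cdkn1a stood at 136, 133, 152 and 143 CPM against 46.3 at the lowest, 54.5 at the median and 83.7 at the highest (log2 fold change 1.28 ± 0.09 (SE), adjusted p = 1.19e-15). No libraries overlapped, although WT replicate 7 held 83.7 CPM and stood apart from the other WT libraries. Trp53inp1, which binds p53 and promotes autophagy and cell death, was 2.93-fold higher, at 478, 491, 514 and 507 CPM against 126 to 200.2.

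Of the 31 genes tested from a list of p53 and its targets, 9 were higher, 0 lower and 22 neither. The shares over all genes tested were 13.0% higher and 8.16% lower. The list's median log2 fold change was 0.50 (0.61 against WT replicates 1 to 4). At an unadjusted p below 0.05, 22 were higher and 5 lower, counts for which no share over all genes was computed. The other members that rose were Perp, a desmosomal protein with a part in p53-driven apoptosis (1.61 ± 0.10), Eda2r, a death-domain receptor of the TNF receptor family (1.26 ± 0.09), Ccng1 (cyclin G1, 1.13 ± 0.05), the kinase Plk2 (1.26 ± 0.15), the epoxide hydrolase Ephx1 (1.22 ± 0.18) and the death receptor Fas (1.55 ± 0.46). Fas was scarce, at 0.612, 0.608, 0.557 and 0.224 CPM. The proapoptotic p53 targets that act at mitochondria did not pass: Bax read 113 to 137 CPM in QKO and 98.7 to 161 in WT, Bbc3 (Puma) had a log2 fold change of -0.34 ± 0.15 and Pmaip1 (Noxa) 0.39 ± 0.09. Trp53 itself, the gene of p53, was 402, 434, 471 and 469 CPM against 239 to 399.7, above every WT library but by 0.50 ± 0.09 on the log2 scale. The DNA repair targets Xpc (-0.72) and Ddb2 (-0.75) lay below 0.

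The p53 list moved less in the other mutants. In TKO 1 member was higher, Pmaip1 (1.06 ± 0.09), and the median was 0.08. In LBRKO edgeR called 0 and the median was 0.18, but 16 members were higher at an unadjusted p below 0.05, against 10 in TKO and 22 in QKO. All 3 comparisons share the WT libraries. The direct contrast of QKO with TKO called 6 members higher, among them Mdm2 (1.13 ± 0.09, adjusted p = 3.35e-13), and 0 lower.

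**Figure D2:**
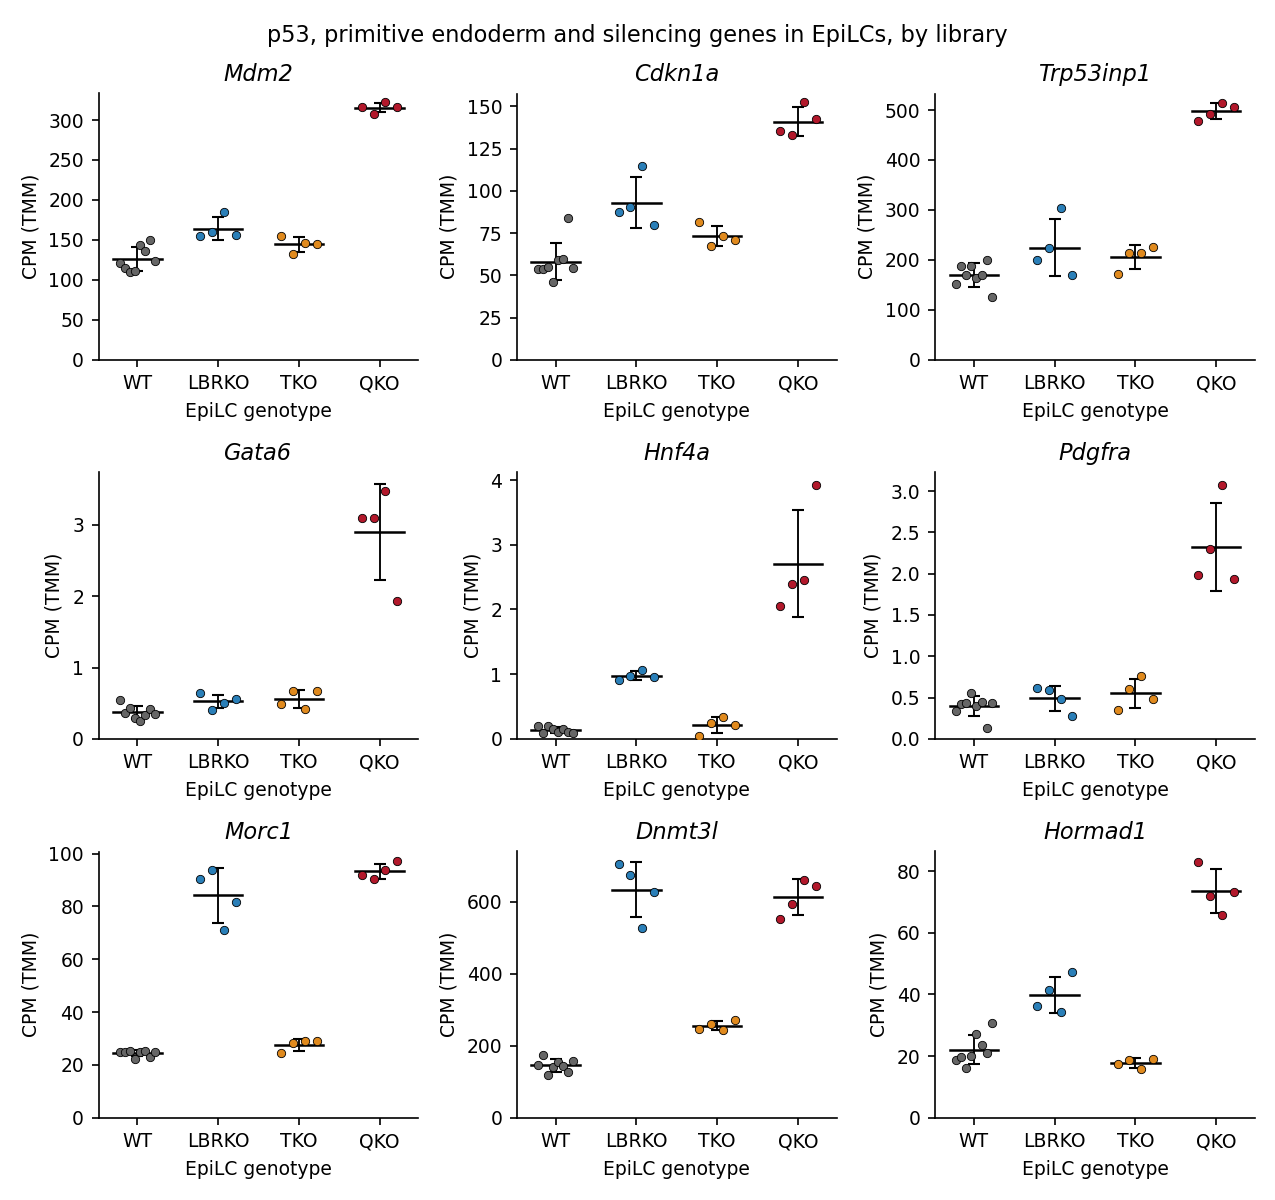
CPM after TMM scaling (y axis, from 0) in each EpiLC library of WT (n = 8), LBRKO, TKO and QKO (n = 4 each) for 9 genes; points are libraries, lines means and bars SD. QKO libraries lie above all WT libraries for each gene, and LBRKO libraries are near QKO for Morc1 and Dnmt3l but not for Mdm2 or Gata6.

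Genes of stress responses leaned the other way, while few genes of the death machinery itself were called. Over all genes tested 13.0% were higher and 8.16% lower. Of 21 BCL2 family and caspase genes 0 were called higher by edgeR (4 at an unadjusted p below 0.05) and 3 lower, with a median of -0.41. Those were the survival factor Bcl2 (-1.92 ± 0.25) and the proapoptotic BH3-only genes Hrk (-1.87 ± 0.17) and Bik (-1.72 ± 0.35). Of 18 genes of the integrated and endoplasmic reticulum stress responses 9 were lower and 0 higher by edgeR (15 and 0 at an unadjusted p below 0.05), with a median of -0.99 (-0.46 in TKO and -0.28 in LBRKO). Chac1, a glutathione-degrading enzyme induced by ATF4, read 22.2, 19.8, 27.6 and 23.4 CPM in QKO and 103 at the lowest, 139 at the median and 176 at the highest in WT. All 4 QKO libraries were under the lowest WT value (log2 fold change -2.56 ± 0.12 (SE), adjusted p = 1.07e-20). Trib3, a pseudokinase of the same response, stood at 24.7, 26.0, 35.3 and 29.6 CPM against 129 to 181 (log2 fold change -2.33 ± 0.09 (SE), adjusted p = 1.96e-23). Asns (asparagine synthetase, -1.32 ± 0.07), Atf3 (-1.83 ± 0.17) and Vldlr (-2.86 ± 0.12) were also lower. Atf4 itself (-0.59 ± 0.09) and the chaperone Hspa5 (-0.08 ± 0.09) stayed within 2-fold.

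Some germline and retrotransposon silencing genes were higher. Morc1, an ATPase that represses retrotransposons in male germ cells, read 91.9, 90.3, 93.7 and 97.0 CPM in QKO and 22.3 at the lowest, 24.9 at the median and 25.4 at the highest in WT. The libraries did not overlap (log2 fold change 1.93 ± 0.06 (SE), adjusted p = 4.70e-28). LBRKO was near QKO at 84.1 ± 10.2 CPM (SD, n = 4; 1.78 ± 0.06 against WT, adjusted p = 5.38e-26), and TKO near WT at 27.7 ± 2.22 (0.18 ± 0.06). Dnmt3l, the catalytically inactive partner of the de novo methyltransferases, was also near QKO in LBRKO and lower in TKO. It stood at 551, 595, 661 and 644 CPM in QKO and 119.6 to 174 in WT (log2 fold change 2.07 ± 0.10 (SE), adjusted p = 2.10e-21), with 2.12 ± 0.10 in LBRKO and 0.81 ± 0.10 in TKO.

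Of 20 silencing genes tested 6 were higher and 1 lower (Tdrd5, -2.69 ± 0.20), with a median of -0.10. The shares over all genes tested were 13.0% higher and 8.16% lower. Tex19.1, which restrains LINE-1 in germ and placental cells, was 2.84-fold higher at 137, 159.7, 185 and 167 CPM against 35.9 to 79.9. The PIWI pathway genes Piwil2 (1.39 ± 0.08), Asz1 (1.49 ± 0.27) and Tdrd9 (1.16 ± 0.28) made up the rest, and Tdrd9 lost its call against WT replicates 1 to 4 (0.93). Members of the general silencing machinery stayed within 2-fold, such as Trim28 (0.21 ± 0.07), Setdb1 (-0.32 ± 0.06), Morc2a (-0.19 ± 0.05) and the HUSH subunit Mphosph8 (-0.15 ± 0.09). Of 21 genes of H3K9 methylation and heterochromatin 1 was higher, Prdm16 (1.25 ± 0.12), and edgeR called 0 lower, with 9 lower at an unadjusted p below 0.05. Beside Dnmt3l, the demethylating enzyme Tet1 was the 1 member of 8 DNA methylation enzymes called higher (1.02 ± 0.14), and it fell under 2-fold against WT replicates 1 to 4 (0.97) and without WT replicate 1 (0.99) or 8 (0.96).

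Of 23 germline and meiosis genes 7 were higher and 1 lower (Rec8, -1.67 ± 0.10), with a median of 0.76, beside 13.0% higher and 8.16% lower over all genes. Against WT replicates 1 to 4, 9 were higher. Smc1b, the meiotic cohesin subunit, read 17.3, 13.6, 13.4 and 15.5 CPM in QKO and 1.12 at the lowest, 2.15 at the median and 3.01 at the highest in WT (log2 fold change 2.83 ± 0.27 (SE), adjusted p = 9.95e-12). Hormad1, which marks the unpaired axes of meiotic chromosomes, stood at 82.97, 71.8, 65.8 and 73.2 CPM against 16.3 to 30.8, 3.31-fold higher. Fkbp6, a cochaperone of the piRNA pathway, stood at 46.9, 49.7, 52.9 and 53.8 CPM against 13.7 to 17.8 (log2 fold change 1.75 ± 0.08 (SE), adjusted p = 2.68e-22). For these 3 genes all QKO libraries lay above all WT libraries. Sycp1, the transverse filament of the synaptonemal complex (1.47 ± 0.14), the ribosomal protein retrogene Rpl10l (1.34 ± 0.09), Taf7l (1.07 ± 0.16) and the cohesin Stag3 (1.00 ± 0.11) completed the 7. Stag3 sat on the 2-fold line, and leaving out single libraries took it to between 0.98 (without WT replicate 2) and 1.05 (without WT replicate 5). Against WT replicates 5 to 8 alone it was 0.97. Some others were within 2-fold, with Dazl, an RNA-binding protein of germ cells, at 0.95 ± 0.12 and Ddx4 (Vasa) at -0.10 ± 0.12. In TKO 1 member was higher (Smc1b, 1.49 ± 0.28) and in LBRKO edgeR called 0 higher and 2 lower, with a median of -0.36 (5 higher at an unadjusted p below 0.05).

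Promoter sequences are shown for members that rose in these 2 lists, because germline promoters that are methylated on entry into the primed state often hold an E-box bound by MGA, MAX and USF factors or an E2F6 site. RefSeq gave 15 promoters (250 bases before to 50 after a start, build GRCm38.p6) for 11 of the 13 members. The E-box CACGTG, which reads the same on both strands, was in 9 of the 15 (60.0%), in 11 of 37 promoters (29.7%) of members of the 2 lists that did not rise, in 9.31% of the promoters of all genes tested and in 7.15% of all 32851 promoters. Some windows of 1 gene overlap and hold the same E-boxes (Hormad1 and Fkbp6), and by gene the counts were 7 of 11 and 9 of 29. The E2F core GCGGGAA, searched on both strands, was in 5 of the 15 (33.3%), 9 of the 37 (24.3%), 7.56% for genes tested and 4.60% of all. Neither motif contains the other. The median count of CpG was 17 in the 15 promoters, 23 in the 37, 18 for genes tested and 7 in all. A match is a description of letters and not of binding. Matches are in capitals, and each sequence is on the strand of its gene, with the start after the first 250 bases. Hormad1 (chr3:95559427-95559726, plus strand) holds 2 E-boxes and 1 E2F core, Fkbp6 (chr5:135349995-135350294, minus strand) 2 E-boxes, Smc1b (chr15:85131908-85132207, minus strand) 1 E2F core, and the Dnmt3l start at chr10:78049592-78049891 (plus strand) 1 E-box with 4 CpG in all. The other Dnmt3l starts, chr10:78042037-78042336 and chr10:78055085-78055384, hold neither motif, and which start EpiLCs use was not tested. Only sequences with a match are printed, and Asz1 and Tex19.1, also higher, have none.
Hormad1 promoter: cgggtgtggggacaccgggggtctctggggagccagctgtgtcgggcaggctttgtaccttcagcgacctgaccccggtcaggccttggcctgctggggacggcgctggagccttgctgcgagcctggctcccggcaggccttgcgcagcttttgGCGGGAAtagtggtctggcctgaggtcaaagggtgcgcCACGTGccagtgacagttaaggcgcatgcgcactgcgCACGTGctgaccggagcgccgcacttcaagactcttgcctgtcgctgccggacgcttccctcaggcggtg
Fkbp6 promoter: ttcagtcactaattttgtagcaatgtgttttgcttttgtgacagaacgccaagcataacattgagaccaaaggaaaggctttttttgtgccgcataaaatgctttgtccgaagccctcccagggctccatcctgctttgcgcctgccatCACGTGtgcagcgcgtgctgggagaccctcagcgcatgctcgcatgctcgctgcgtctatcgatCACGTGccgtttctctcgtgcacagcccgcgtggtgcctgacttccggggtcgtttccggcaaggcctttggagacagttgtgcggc
Smc1b promoter: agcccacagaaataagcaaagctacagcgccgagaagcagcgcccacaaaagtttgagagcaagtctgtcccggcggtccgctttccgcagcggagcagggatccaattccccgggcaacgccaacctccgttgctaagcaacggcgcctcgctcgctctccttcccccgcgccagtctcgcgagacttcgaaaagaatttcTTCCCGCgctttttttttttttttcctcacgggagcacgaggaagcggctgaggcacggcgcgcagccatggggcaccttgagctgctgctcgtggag
Dnmt3l promoter: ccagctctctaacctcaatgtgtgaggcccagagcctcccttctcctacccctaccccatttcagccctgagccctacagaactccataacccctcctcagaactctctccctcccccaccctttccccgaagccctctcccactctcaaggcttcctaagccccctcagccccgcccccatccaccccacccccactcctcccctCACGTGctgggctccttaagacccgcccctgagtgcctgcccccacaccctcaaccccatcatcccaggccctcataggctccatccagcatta

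Primitive endoderm is the extraembryonic layer that forms beside the epiblast, and 3 of its regulators and markers rose, within a list whose share of higher genes was near that of all genes. Gata6, the transcription factor that starts this fate, read 3.10, 3.10, 3.47 and 1.93 CPM in QKO and 0.247 at the lowest, 0.353 at the median and 0.547 at the highest in WT. The lowest QKO library was over 3 times the highest WT library (log2 fold change 2.96 ± 0.27 (SE), adjusted p = 3.83e-12). Hnf4a, a nuclear receptor of visceral endoderm, read 2.05, 2.40, 2.46 and 3.92 CPM against 0.0876 to 0.205 (log2 fold change 4.31 ± 0.24 (SE), adjusted p = 8.87e-19), and it was also higher in LBRKO (2.84 ± 0.25). Pdgfra, the receptor that marks primitive endoderm, read 1.98, 2.30, 3.08 and 1.93 CPM against 0.130 to 0.558 (log2 fold change 2.56 ± 0.27 (SE), adjusted p = 1.12e-10).

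Other endoderm genes were not called higher. Of 19 genes tested 3 were higher, those 3, and 3 were lower: Amn (-2.32 ± 0.38) and Dab2 (-1.39 ± 0.20), of the endocytic complex of visceral endoderm, and Sox7 (-2.27 ± 0.42). Over all genes tested 13.0% were higher and 8.16% lower. Gata4 was 5.08, 5.12, 5.47 and 3.67 CPM against 4.17 to 6.76 (-0.18 ± 0.12), Sox17 0.756, 0.480, 0.720 and 0.308 against 0.129 to 0.767 (0.27 ± 0.37) and Foxa2 0.43 ± 0.42 on the log2 scale. The list's median was 0.17, and -0.02 against WT replicates 1 to 4, so its sign turned. In TKO edgeR called 0 higher and in LBRKO 2, with 3 and 7 at an unadjusted p below 0.05.

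WNT ligands and mesendoderm genes were mixed. Wnt8a, Wnt6 and Wnt5a, secreted WNT ligands, were higher. Wnt5a, which acts mainly outside the beta-catenin branch, read 2.77, 3.07, 3.57 and 2.38 CPM in QKO and 0.291 at the lowest, 0.480 at the median and 0.764 at the highest in WT (log2 fold change 2.55 ± 0.31 (SE), adjusted p = 2.92e-09), and stood below WT in TKO (-1.21 ± 0.41) and LBRKO (-1.03 ± 0.37). Wnt8a stood at 2.45, 2.97, 3.54 and 4.20 CPM against 0.421 to 0.852 (log2 fold change 2.498 ± 0.33 (SE), adjusted p = 2.54e-08) and Wnt6 at 2.95, 2.33, 4.06 and 2.97 against 0.470 to 1.13 (log2 fold change 2.195 ± 0.26 (SE), adjusted p = 2.27e-09). Eomes, a T-box factor of the streak and trophoblast, was 2.701-fold higher at 20.4, 22.6, 20.8 and 21.8 CPM against 6.87 to 9.504, and Lhx1 rose from scarce levels (1.83 ± 0.46). The streak gene T read 0.0720, 0.0959, 0.0982 and 0.140 CPM in QKO and 0.103 to 0.468 in WT, a log2 fold change of -1.69 ± 0.85 under the thresholds (adjusted p = 0.0886), and Wnt5b was lower (-1.67 ± 0.30). Of 15 genes tested 5 were higher and 2 lower, beside 13.0% higher and 8.16% lower over all genes. The other was Gsc (-1.43 ± 0.58), whose call was lost without WT replicate 2 or 4, without QKO replicate 2, 3 or 4 and against WT replicates 5 to 8, down to -1.03 without QKO replicate 2. Of 14 trophectoderm genes 3 were higher (Gata3, 2.09 ± 0.25, Plet1, 1.98 ± 0.18, and Eomes) and 2 lower (Krt18 and Hand1), while Cdx2 and Elf5 stayed at 0.128 to 0.393 and 0.0280 to 0.196 CPM. Of 13 genes that the study names for these cells 11 were higher, a list chosen on these same samples and so no independent evidence of its direction.

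Genes of the Nodal and FGF signals that maintain the primed state changed in part. Of 13 Nodal and activin pathway genes 2 were called lower by edgeR and 0 higher (6 and 0 at an unadjusted p below 0.05), and of 16 genes of FGF receptors and ERK feedback 3 were lower and 2 higher. Over all genes 8.16% were lower and 13.0% higher, so the share of FGF and ERK genes called higher was near that of all genes. Cripto (Tdgf1), the coreceptor of Nodal, read 191, 187, 185 and 195 CPM in QKO and 539 at the lowest, 641 at the median and 716 at the highest in WT. All QKO libraries were below all WT libraries (log2 fold change -1.73 ± 0.14 (SE), adjusted p = 5.99e-14). Furin, which processes the Nodal precursor, was lower too (-1.16 ± 0.09), and the ligand Nodal (0.04 ± 0.06) and its targets Lefty1 (0.49 ± 0.26) and Lefty2 (0.05 ± 0.19) were within 2-fold. Early response genes of the ERK pathway, Fos (-2.39 ± 0.57) and Egr1 (-2.22 ± 0.66), and the feedback inhibitor Spry1 (-1.15 ± 0.12) were lower. The ERK phosphatase Dusp4 (1.27 ± 0.26) and the receptor Fgfr4 (1.53 ± 0.18) were higher. Of 20 YAP target and cytoskeletal genes 7 were lower and 2 higher. Acta2, smooth muscle actin, read 0.0720, 0, 0.0327 and 0.0841 CPM against 1.17 to 3.52 (log2 fold change -5.43 ± 0.62 (SE), adjusted p = 9.94e-10), Myl9 and Tpm2 of contractile fibres were -2.42 ± 0.21 and -1.42 ± 0.17, and the filament genes Vim (1.33 ± 0.09) and Krt19 (1.55 ± 0.17) were the 2 that rose. The YAP targets Ccn1 (-0.10 ± 0.17) and Ccn2 (-0.13 ± 0.26) were near WT.

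Naive pluripotency genes were raised in part. Of 15 tested 6 were higher and 1 lower, with a median of 0.06, beside 13.0% higher and 8.16% lower over all genes. Their summed level was 653 to 819 CPM in QKO and 691 to 878 in WT EpiLCs, which overlap. In LBRKO EpiLCs 5 were higher, with a median of 0.76 and sums of 894 to 1187 CPM. Esrrb, an orphan nuclear receptor of the naive network, read 38.7, 41.9, 50.03 and 49.6 CPM in QKO and 13.9 at the lowest, 15.1 at the median and 19.3 at the highest in WT EpiLCs (log2 fold change 1.5002 ± 0.09 (SE), adjusted p = 8.36e-18). Its level in WT mES cells was 913 ± 41.4 CPM (SD, n = 8). Nr0b1 (1.79 ± 0.18), Zfp42 (Rex1, 1.26 ± 0.13), Tcl1 (1.34 ± 0.20) and Dppa3 (1.99 ± 0.23) were higher as well, and LBRKO had Esrrb at 2.32 ± 0.09, Nr0b1 at 2.77 ± 0.17 and Zfp42 at 1.53 ± 0.13. Tbx3 (1.07 ± 0.23) lost its call against WT replicates 5 to 8 (0.99) and without QKO replicate 3 or WT replicate 5 or 6 (from 0.95). Klf4 (0.06 ± 0.20), Tfcp2l1 (0.33 ± 0.14) and Prdm14 (-0.03 ± 0.53) were within 2-fold. Nanog was lower at 26.7, 28.7, 31.1 and 30.3 CPM against 45.0 to 107 (log2 fold change -1.40 ± 0.17 (SE), adjusted p = 3.64e-09), but the difference was -0.80 against WT replicates 5 to 8 alone. Sox2 was higher (1.12 ± 0.08), at 0.95 against the same 4 libraries, and Pou5f1 (Oct4) read 269.6 to 314 CPM against 388 to 617 (-0.77 ± 0.10).

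**Figure D3:**
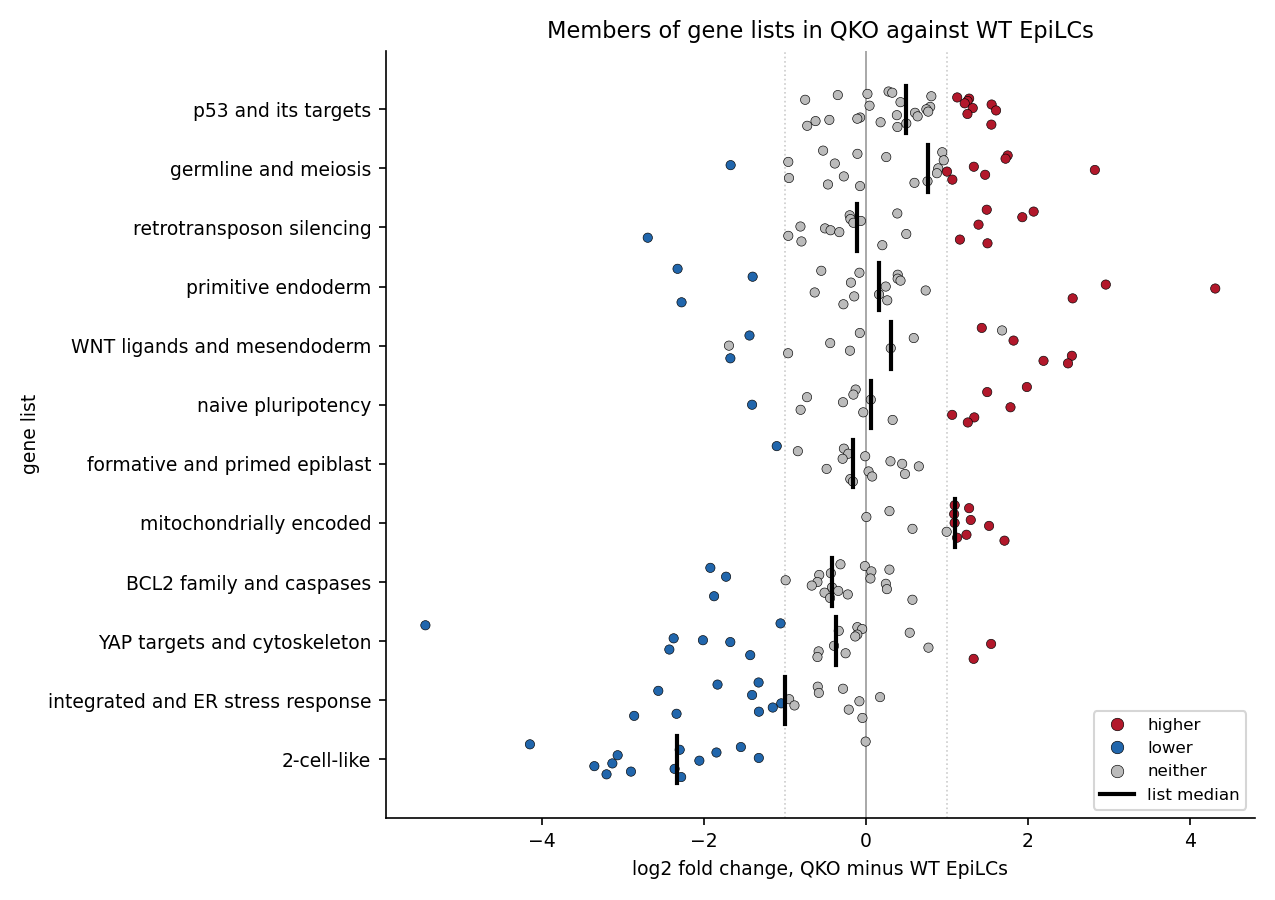
Log2 fold change of QKO minus WT EpiLCs (x axis) for each tested member of the gene lists (rows); colours mark the call, black bars the list median and dotted lines 2-fold. The p53 list has 9 members higher and 0 lower, and the stress list 0 higher and 9 lower.

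Genes of the 2-cell-like state, a rare fluctuating state of mES cells with Zscan4 and MERVL transcripts, were lower. Of 14 tested 13 were lower and 0 higher by edgeR (13 and 0 at an unadjusted p below 0.05), with a median of -2.33, against -1.87 in TKO and -3.73 in LBRKO. Zscan4d read 0.288, 0.320, 0.393 and 0.897 CPM in QKO and 2.43 at the lowest, 3.63 at the median and 4.68 at the highest in WT (log2 fold change -2.90 ± 0.43 (SE), adjusted p = 3.30e-07). The Zscan4 and Usp17l genes are near-identical copies, and reads that fit several copies were not counted. Their levels rest on reads that tell the copies apart, and they are not taken as separate observations.

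The QKO clone was made from TKO cells, and the contrast of the 2 shows what differed between them. It called 2333 genes higher in QKO (9.97%) and 1237 lower (5.29%). Of these, 1768 and 990 also carried that call against WT. By the rule for named genes the greatest rises over TKO were Slfnlnc (5.30 ± 0.28), Mir142hg (4.31 ± 0.31), the host gene of a blood-cell microRNA, Phf11d (3.98 ± 0.13), the neurotrophin receptor Ngfr (3.82 ± 0.25) and Rcsd1 (3.81 ± 0.39). Among the greatest falls were Zfp618 (-3.06 ± 0.26), the homeobox gene Irx3 (-2.95 ± 0.32), Ap3b2 (-2.91 ± 0.18) and Fndc3c1 (-2.81 ± 0.20). Ngfr read 8.68, 10.8, 13.1 and 11.8 CPM in QKO, 0.776 ± 0.269 in TKO (SD, n = 4) and 1.33 to 2.75 in WT. Irx3 stood at 0.8999, 0.767, 0.720 and 0.981 CPM in QKO, 6.54 ± 2.21 in TKO and 1.65 ± 0.592 in WT (SD, n = 4 and 8), so TKO was the group away from WT there.

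Whether the QKO difference depended on the stage was tested by subtracting the difference in mES cells from that in EpiLCs. The stage term called 1623 genes higher (6.94%) and 1332 lower (5.69%), among them 849 of the genes higher and 602 of the genes lower in QKO EpiLCs. Of the p53 list 9 members had a higher stage term and 0 lower. Mdm2 was 0.03 log2 units from WT in mES cells and 1.32 in EpiLCs, a stage term of 1.29 ± 0.11 (adjusted p = 2.08e-12). For Cdkn1a the term was 1.71 ± 0.13 (adjusted p = 5.96e-14). Gata6 (2.58 ± 0.45) and Morc1 (1.98 ± 0.08) also had positive terms, whereas Dnmt3l was as much higher in QKO mES cells (2.28 ± 0.10) and its term was -0.20 ± 0.14 (adjusted p = 0.312).

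For several genes with large stage terms QKO mES cells lay below WT. Fgfr2, the FGF receptor of primitive endoderm, was -4.27 ± 0.22 in mES cells and 0.39 ± 0.15 in EpiLCs. Wnt5a had 2 reads over all QKO mES libraries and 145 over WT, a ratio of 0.0376 with an exact 95% interval of 0.00451 to 0.138 that covers counting error only. For such genes the fitted stage term (here 7.08 ± 0.69) rests on a few reads and its size is uncertain. The greatest positive terms by the rule for named genes were Tal1 (7.36 ± 0.46), a transcription factor of blood formation, the WNT receptor Ror1 (5.97 ± 0.63), Tgfbi (5.67 ± 0.28), Krt19 (5.43 ± 0.28) and Mir142hg (4.95 ± 0.33). The greatest negative terms were Prom2 (-5.28 ± 0.69), Uggt2 (-4.95 ± 0.19), Tmem54 (-4.40 ± 1.05), Kif1a (-3.75 ± 0.28) and Cnn1 (-3.75 ± 0.43). Tal1 stood at 6.62, 7.07, 6.22 and 5.49 CPM in QKO EpiLCs and 2.79 to 4.65 in WT EpiLCs, and at 0.00958 ± 0.0192 in QKO and 1.24 ± 0.209 in WT mES cells (SD, n = 4 and 8). The QKO mES value is 1 read in all, and the ratio to WT was 0.00753 (exact 95% interval 0.000190 to 0.0422). Tmem54 had 5 reads in QKO and 0 in WT mES cells, so its term is no measure of size.

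**Figure D4:**
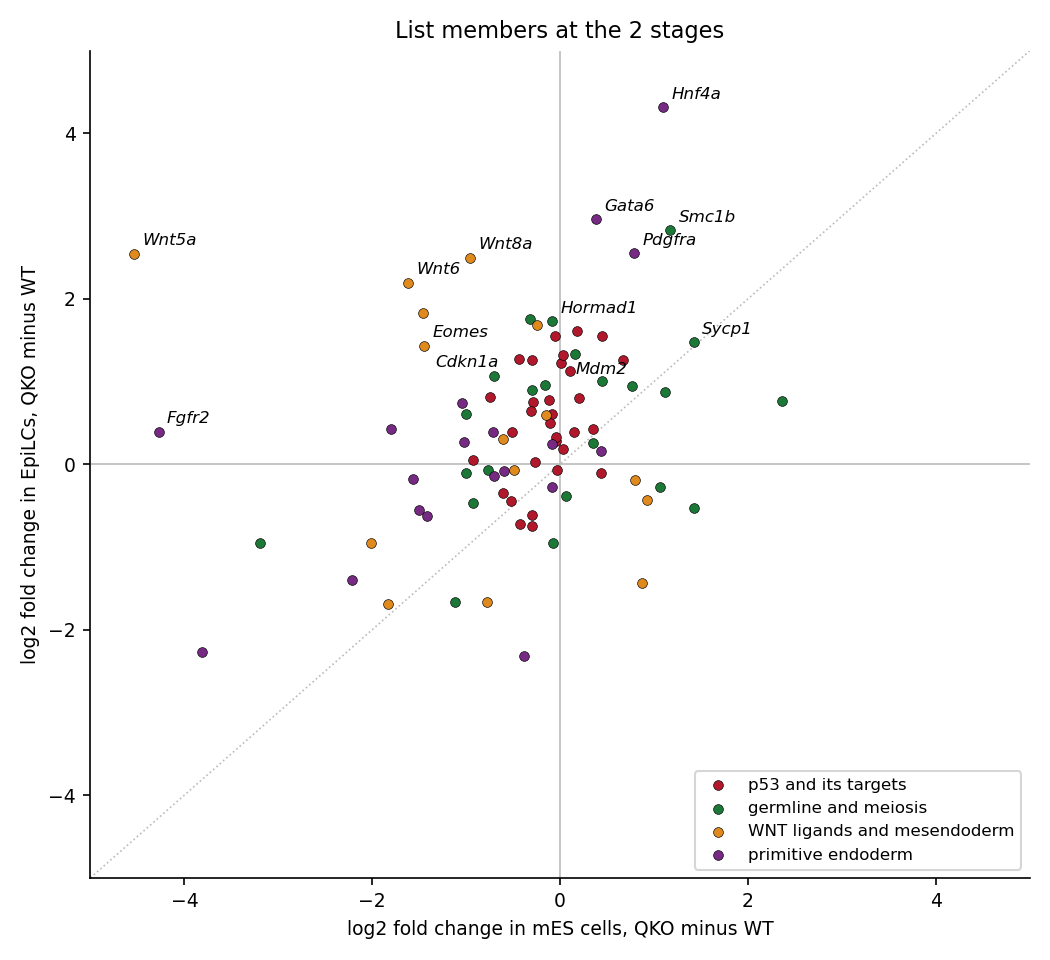
Log2 fold change of QKO minus WT in mES cells (x axis) and in EpiLCs (y axis) for members of 4 gene lists; the dotted line marks equal values. Mdm2 (0.03 and 1.32) and Gata6 (0.38 and 2.96) lie above it, and Wnt5a (-4.53 and 2.55), with 2 reads in QKO mES cells, is on opposite sides of 0.

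Transposable elements (TEs) took more of the RNA. In the table that assigns multimapped reads to genes and TE families, TEs held 13.5% to 14.3% of counts in QKO EpiLCs and 7.12% to 10.2% in WT, with no overlap. The means were 13.9 ± 0.299% (SD, n = 4) and 8.51 ± 0.985% (n = 8), a difference of 5.39 percentage points (exact two-sided permutation test over 495 groupings, p = 0.00202, the smallest this design allows, and p = 0.0286 against WT replicates 1 to 4, also the smallest possible). LINEs took 2.65% against 1.27%, SINEs 6.09% against 3.50% and LTR elements 3.61% against 2.35%, each with the same p after adjustment. TKO stood at 9.46% to 9.78% and LBRKO at 7.84% to 12.7%.

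The rise was spread over nearly all families. Of 1142 families tested 297 were higher (26.0%) and 0 lower, and the median was 0.85. At an unadjusted p below 0.05 edgeR gave 983 families higher and 5 lower, and DESeq2 called 0 lower. Against WT replicates 1 to 4, 389 were higher (34.1%). L2 and MIR elements, ancient families with no known active copies, served as a gauge of this general shift. Their 10 families ranged from 0.50 to 0.82 with a median of 0.73, and 0 were called by edgeR, though 10 were higher at an unadjusted p below 0.05. Unique reads told where the copies lie: per 1000000 gene counts, TE copies inside introns had 92031 reads at the QKO median and 47503 at the WT median, while copies that touch an exon had 51862 and 44358. Copies at least 50 kb from any gene had 769.7 to 939 reads on that scale in QKO and 277 to 487 in WT. When families were scaled to the L2 and MIR counts, a choice made after seeing the data, 26 remained higher (2.28%) and 7 were lower (0.613%).

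Young families of LINE-1 and of endogenous retroviruses were among those above the general shift. L1MdA_I, the youngest A-type mouse LINE-1, read 3517, 2698, 2669 and 2900.2 CPM in QKO and 308 at the lowest, 375 at the median and 453 at the highest in WT. Every QKO library was over 5 times the highest WT library (log2 fold change 2.98 ± 0.15 (SE), adjusted p = 1.15e-19), and the change was 2.24 after scaling to L2 and MIR. TKO lay between, at 1.80 ± 0.15, and QKO was 1.18 ± 0.18 above it. L1MdA_II (2.47 ± 0.13) and L1MdA_IV (2.08 ± 0.13) were higher too. Of 19 mouse L1Md families 10 were higher and 3 after scaling, and of 27 older rodent LINE-1 families 5 and 0.

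IAP elements, retroviruses held silent by H3K9me3 and DNA methylation, were higher in 14 of 25 families and in 3 after scaling. IAP1-MM_I read 30.4, 29.4, 27.0 and 30.1 CPM against 3.38 to 5.06 in WT (log2 fold change 2.88 ± 0.12 (SE), adjusted p = 4.48e-22; 2.17 after scaling), with TKO at 0.56 ± 0.13 and LBRKO at 0.43 ± 0.12. The abundant IAPEz-int was within 2-fold (0.66 ± 0.08). MMERGLN-int, a gammaretroviral family, was 5.66 ± 0.21 in QKO, from 2.01 to 5.32 CPM in WT to 162 to 196, and its LTR, MMERGLN_LTR, was 3.80 ± 0.18. TKO had nearly the same values, 5.64 ± 0.21 and 3.52 ± 0.18, and QKO minus TKO was 0.02 ± 0.22 for MMERGLN-int (adjusted p = 0.956). The rest of the 10 families with the greatest rises were Charlie30a (3.08 ± 0.18), ERVB5_1-I_MM (2.71 ± 0.15), UCON41 (2.64 ± 0.18) and MMERVK10D3_I (2.38 ± 0.13), all higher after scaling as well.

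Other families moved less. Of 18 SINE B1 and B2 families 1 was higher, with a median of 0.86 and 0.16 after scaling. MERVL-int, the endogenous retrovirus of the 2-cell-like state, read 139.7, 156, 141 and 149 CPM against 137 to 229.7 (log2 fold change -0.33 ± 0.16 (SE), adjusted p = 0.0752), a difference that reached 2-fold only after scaling (-1.06). RLTRETN_Mm of the ETn group was -0.28 ± 0.16 and -1.01 after scaling. Against TKO 249 families were higher in QKO (21.8%) and 1 lower, and the stage term was lower for 17 (1.49%) and higher for 6. IAP1-MM_I was among those with a higher stage term (1.31 ± 0.17) and MERVL-int among the lower (-1.12 ± 0.23).

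**Figure D5:**
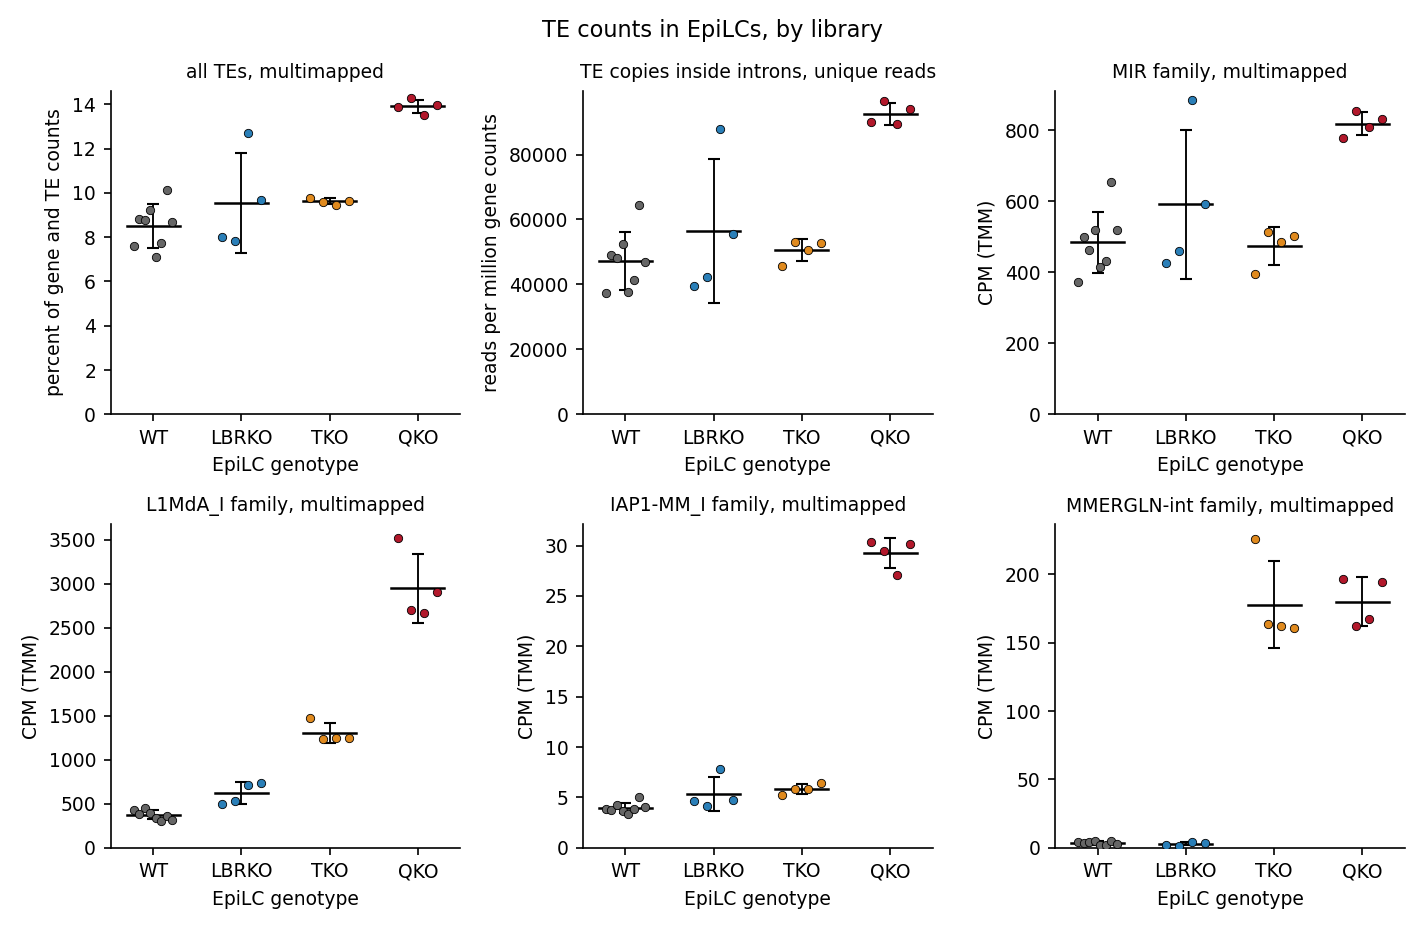
Share of counts on TEs, unique reads on TE copies inside introns per 1000000 gene counts, and CPM of 4 TE families (y axes, from 0) in each EpiLC library of 4 genotypes; points are libraries, lines means and bars SD. MIR follows the general shift, L1MdA_I and IAP1-MM_I rise further in QKO, and MMERGLN-int is as high in TKO as in QKO.

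Whole-library features that moved with the genotype were these. Mitochondrially encoded genes took 0.929% to 1.76% of counts in QKO and 0.505% to 0.799% in WT, and 9 of 13 were higher (6 against WT replicates 1 to 4), with mt-Nd6 at 1.71 ± 0.25 and mt-Co1 at 0.29 ± 0.12. The median log2 fold change by chromosome was -0.08 on chromosome 6 and 0.04 on chromosome 8, beside 1.56 for 14 genes on Y. Among genes of at least 5 CPM, chromosome 6 stood at -0.35 and chromosomes 1 to 19 and X otherwise between -0.27 and -0.15. The part of these differences in the results above was not tested. Leaving out the genes of chromosomes 6, 8, X and Y left the calls of the genes rechecked on the other chromosomes as they were. That refit can change such calls only through the scaling, the estimated spread and the adjustment. It cannot test effects of chromosome number on genes elsewhere.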

How the data were processed

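The authors deposited raw counts per gene, counts per TE copy from unique reads, and counts per gene and TE family that include multimapped reads. Per the labels and the study's methods, reads were trimmed with cutadapt 2.5, aligned to GRCm39 with STAR 2.7.10a, handled with SAMtools 1.10 and counted with featureCounts 1.6.4, with a TE counting tool for families. Strand settings were not given in the sources used here.

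From these counts, genes and TE families were tested with edgeR 4.0.16 (R 4.3.3): quasi-likelihood fit over all 40 libraries, 8 group means, TMM scaling, filterByExpr, Benjamini-Hochberg adjustment over all features. A second fit kept WT replicates 5 to 8 as groups of their own. The test was checked on simulated data. DESeq2 1.42.0, other scalings, filters, left-out libraries and a replicate block were alternatives. The scaling to L2 and MIR families, and replicates 1 to 4 without the block, were added after seeing the data. The members, gene lists and TE lists were chosen with earlier results of these data known.

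Genes were named if targeted, listed, or among the 10 greatest rises and 10 greatest falls (5 each for the TKO and stage contrasts) that were called against all WT and WT replicates 1 to 4, without overlap of libraries, at 5 CPM or more in the higher group, clone names left out. Some genes under this rule are not reported here. TE families followed the same rule at 1 CPM, 10 up and 5 down, and none was called down. Shares of counts were compared by exact permutation. All sequences except the Lbr site are RefSeq promoters on another build than the counts, and entries were matched by symbol.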

Additional observations from a re-analysis of the deposited data

Results flagged for a closer look

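A library far from the others of its group was found for 17 values among 284 groups of 4 or 8 libraries, where chance alone gives about 1 in 20. WT replicate 7 was high for Cdkn1a at 83.7, Plk2 at 88.7, Bbc3 at 74.2, Tbx3 at 3.98 and the TE family Charlie30a at 2.64 CPM. Among QKO libraries, Charlie30a at 17.0, Dppa3 at 4.43 and Rcsd1 at 7.38 CPM stood apart in replicate 1 and Fas at 0.224 CPM in replicate 4. The other WT values of this kind were Tdrd9 at 1.03 CPM in replicate 1, Ngfr at 2.75 and Ap3b2 at 5.98 in replicate 2, Fkbp6 at 17.8, Stag3 at 56.8 and Fut1 at 16.2 in replicate 5, and Apoa2 at 0.35 and Fndc3c1 at 22.8 in replicate 8. Without WT replicate 7 the log2 fold change of Cdkn1a was 1.37 and that of Plk2 1.42.

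The difference between QKO and WT differed between EpiLCs and mES cells, by edgeR's test of that difference, for 75 of the genes and TE families rechecked. The log2 value of the difference in EpiLCs less that in mES cells follows each name. In the p53 list they were Mdm2 (1.29), Cdkn1a (1.71), Ccng1 (1.03), Trp53inp1 (1.10), Perp (1.43), Eda2r (1.56), Ephx1 (1.21), Btg2 (1.55) and Mdm4 (1.04). Among endoderm, WNT and mesendoderm genes they were Gata6 (2.58), Hnf4a (3.21), Pdgfra (1.76), Amn (-1.93), Gata4 (1.39), Fgfr2 (4.67), Wnt5a (7.08), Wnt6 (3.81), Wnt8a (3.46), Eomes (2.88), Lhx1 (3.29) and Gsc (-2.30). Pluripotency and epiblast genes with such a difference were Esrrb (1.599), Nr0b1 (2.43), Dppa3 (2.52), Tcl1 (1.54), Nanog (-1.42), Sox2 (1.15), Fgf5 (3.29) and Pou3f1 (1.55). Germline and silencing genes were Morc1 (1.98), Tex19.1 (1.83), Tdrd9 (1.46), Smc1b (1.65), Fkbp6 (2.07), Hormad1 (1.81), Rpl10l (1.17) and Taf7l (1.77). From the stress, cytoskeleton, death, antiviral, nuclear envelope and imprinted lists came Chac1 (-1.44), Trib3 (-1.22), Asns (-1.29), Cnn1 (-3.75), Vim (1.77), Krt19 (5.43), Bcl2 (-1.53), Rigi (1.13), Ifit1 (3.16), Syne3 (1.84), Peg3 (2.52) and Grb10 (-1.65). Genes with the greatest rises or falls in QKO EpiLCs gave Slfnlnc (2.36), Magea4 (2.90), Kdm5d (-1.34), Phf11d (3.39), Btnl7-ps (2.91), Or14a260 (4.15), Slfn8 (2.15), Gjb2 (-2.41), Kif1a (-3.75), Gpr137b-ps (-1.80) and Hhip (-1.32). Those named from the contrasts with TKO and between stages gave Ngfr (3.71), Mir142hg (4.95), Rcsd1 (1.82), Irx3 (2.73), Tgfbi (5.67), Ror1 (5.97), Tal1 (7.36), Uggt2 (-4.95), Prom2 (-5.28) and Tmem54 (-4.40). The targeted genes Lmnb1 (-2.93) and Lmna (1.17) and the TE families IAP1-MM_I (1.31), UCON41 (2.27) and MERVL-int (-1.12) also differed. The contrast subtracts 2 differences that each rest on 1 QKO clone, and for Wnt5a, Tal1, Fgf5, Lhx1, Irx3, Or14a260 and Tmem54 a group of mES libraries held 3 reads or fewer, so the sizes given for them are uncertain.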

How the results depend on the processing

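Counts of genes higher and lower in QKO EpiLCs stayed within 1.5 times under all alternatives run: other scalings, DESeq2, no filter on low counts, only the 12 libraries compared, WT replicates 1 to 4 or 5 to 8 alone, each library left out in turn (2913 to 3240 higher and 1839 to 1970 lower) and genes on chromosomes 6, 8, X and Y left out. With library size alone 3777 were higher and 1439 lower. TE families depended most on scaling. The 297 higher became 26 once families were scaled to L2 and MIR elements, and the 0 lower became 7. They were 258 to 437 with single libraries left out, the most without WT replicate 7. Against WT replicates 5 to 8 alone 1 family was lower, as also without WT replicate 1 (0 to 1 over the libraries left out).

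Replicate numbers are shared by the genotypes, but same-numbered QKO and WT libraries deviated together unevenly over 10838 genes (r = 0.413, 0.0502, 0.230 and 0.0330 for numbers 1 to 4). Pairs of different numbers had r from -0.445 to 0.370. Whether equal numbers mark a shared batch was not tested further. With the replicate block in libraries 1 to 4, 473 TE families were higher, and 447 in the same libraries without the block. For genes the block gave 2823 higher and 1601 lower, and 2772 and 1592 without it.

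Of the named genes, 11 lost the call in at least 1 alternative (41 of the values): Gsc, Tbx3, Nanog, Sox2, Cdh2, Tdrd9, Tet1, Taf7l, Stag3, Psat1 and Nupr1. In 8 values Irx3 or Ror1 gained one. No called value changed sign, and 2591 values for 121 genes kept their call. For 13 TE families 284 values did, and MERVL-int and RLTRETN_Mm became lower when scaled to L2 and MIR. Psat1 lost its call under library size alone (-0.99) and Nupr1 without QKO replicate 2 or 3 or WT replicate 1 (from -0.98). The cause of these changes was not tested. Genes near 0.1 CPM, such as Fas and Gsc, rest on a handful of reads in each library, and for them small differences were not detectable at this depth.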

Other observations

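Antiviral sensing and interferon genes moved both ways in QKO EpiLCs. Of 27 tested 3 were higher and 5 lower, with a median of -0.17, beside 13.0% higher and 8.16% lower over all genes tested. The RNA sensor Rigi (RIG-I) read 17.2, 19.03, 20.2 and 22.4 CPM in QKO and 7.03 to 10.2 in WT, and Ifit1 was higher too (1.82 ± 0.51 on the log2 scale). The sensor Ifih1 (MDA5) was lower (-1.604 ± 0.58), as were Oasl2 (-2.61 ± 0.25), Oasl1 (-1.13 ± 0.26), Ifit2 (-1.01 ± 0.17) and the DNA-sensing adaptor Sting1 (-1.03 ± 0.26). Isg15, an interferon-induced ubiquitin-like modifier, stayed at 0.252, 0, 0.131 and 0.224 CPM against 0 to 0.449 in WT.

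Of 20 other nuclear envelope genes 1 was higher, Syne3 (nesprin-3, 2.13 ± 0.28), and edgeR called 0 lower, with 8 lower at an unadjusted p below 0.05. Emd (emerin) was 83.2, 78.4, 85.8 and 82.6 CPM against 92.5 to 119 (-0.36 ± 0.08) and Tmpo (LAP2) -0.09 ± 0.05. Among 27 imprinted genes 4 were higher and 3 lower, shares near the 13.0% higher and 8.16% lower over all genes. Peg3, a zinc finger gene of the paternal allele, was 2.88-fold higher (1.53 ± 0.06), Grb10, an adaptor that restrains growth factor signalling, was -2.13 ± 0.07, and Phlda2 was -1.89 ± 0.18. H19 (0.75 ± 0.22) and Meg3 (-0.03 ± 0.16) were within 2-fold. Cholesterol synthesis genes, of interest because LBR is itself a sterol reductase, had 2 of 22 lower in QKO and 0 higher, with a median of -0.49, and 17 lower at an unadjusted p below 0.05. The share of this list called lower was near that of all genes. Against WT replicates 1 to 4 the median was -0.22, with 2 lower and 1 higher. Tm7sf2, which encodes the other sterol C14 reductase, read 6.55, 7.87, 9.40 and 8.69 CPM in QKO and 24.5 to 44.2 in WT (log2 fold change -1.97 ± 0.14 (SE), adjusted p = 1.34e-15). In LBRKO, set against all WT libraries alone, the median of that list was 0.52, with 18 members higher at an unadjusted p below 0.05 and 0 called. Of 7 Y-linked genes 3 were higher and 1 lower.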
